A study of Danio rerio with 6 samples.

Results

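The genes described here build the contacts between cells and the keratin filaments anchored to them. They were chosen by symbol, taking every zebrafish Ensembl symbol in the *cdh*, *pcdh*, *cldn*, *ocln*, *tjp*, *ctnn*, *krt* and *dsp* series together with *epcam*, *f11r.1*, *cyt1*, *ppl*, *evpla* and *jupa*. The rule found 74 of the 14132 genes that were not listed at 0 in all libraries, namely 20 claudins, 13 keratins, 12 protocadherins, 10 cadherins, 8 catenins, 7 occludin and ZO genes, 2 other adhesion receptors and 2 plakins. A further 97 symbols that fit the rule, 46 of them protocadherins, were listed at 0 everywhere, and no row matched *jupa*. Whether the RNA of genes listed at 0 was absent from the cells was not tested. Several members carry a family name without being junction proteins, such as *CTNNBL1*, a splicing-associated protein.

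Cells were sorted from pooled AB zebrafish embryos labelled as 9 hpf (hours post-fertilization). The authors' methods give a slightly earlier stage for the dissociation of the embryos. ‘Mosaic’ cells were GFP+ cells from embryos injected with a plasmid in which the heat-shock promoter *hsp70l* drives GFP and β-catCA, an N-terminally truncated, constitutively active mouse β-catenin. ‘Ubiquitous’ cells were GFP+ cells from a transgenic line that carries GFP and β-catCA under the same promoter in every cell, and both of these groups were heat-shocked. ‘Uninjected’ cells came from embryos that received no plasmid and were sorted under similar conditions, and whether they were heat-shocked is not given in the sources used here. No group was injected with a plasmid lacking β-catCA, so effects of injection and effects of β-catCA cannot be told apart in ‘Mosaic’ cells. Each group had 2 libraries, and nothing in the sources says that these were separate clutches, so the p-values measure only the spread between these libraries.

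Cells at this stage adhere mainly through adherens junctions, in which cadherins bind each other between neighbours and hold β-catenin, α-catenin and p120-catenin at the membrane. Tight junctions, built from claudins, occludin, JAM proteins and ZO scaffolds, seal the enveloping layer, the flat epithelium that covers the embryo. That layer also makes most of the keratin of the embryo, whose filaments are obligate pairs of a type I and a type II keratin. The deep cells beneath it move as a looser, cadherin-rich tissue. β-catenin is at once a junction component and the transcriptional effector of Wnt signalling, which is why these genes are of interest in β-catCA cells.

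Values were deposited as rlog, a log2 scale on which DESeq2 shrinks weakly measured values towards the mean of the gene. The counts behind them were inferred by inverting that transformation, and are given here per 100000 counts of the library. Because the assay (CEL-Seq2) counts the 3′ ends of transcripts once each, levels were not divided by gene length. The 2 Mosaic libraries held 217242 and 240221 inferred counts, the Ubiquitous libraries 345592 and 34540, and the Uninjected libraries 58352 and 489313, so depth ranged over 14.2-fold. In Ubiquitous library 2, 14.4% of the tested genes had no count, and in Uninjected library 1 this share was 4.97%, against at most 0.102% in the other libraries. A count of 0 allows up to 8.69 counts per 100000 in Ubiquitous library 2 and up to 5.14 in Uninjected library 1 (3 counts of the total, counting error only). Outside the family, the hatching gland gene *ctslb* and the anterior neural genes *rx3* and *otx2a* fell in both β-catCA groups against Uninjected cells. Of 8 tested genes listed as prechordal plate and hatching gland, 2 passed as lower in Mosaic cells and 1 in Ubiquitous cells. In each of these comparisons 2 of the 8 lay above 0, among them *noto* (0.44 in Mosaic and 0.81 in Ubiquitous cells), which did not pass. The 6 genes listed as anterior neural and with counts summed to 117 and 143 per 100000 in Mosaic libraries and 145 and 84.0 in Ubiquitous libraries. In Uninjected libraries they summed to 190 and 256. Most of these counts were of *SOX2* and *SOX3*, which did not pass. Against Uninjected cells *SOX2* differed by 0.25 in Mosaic and -0.26 in Ubiquitous cells, and *SOX3* by -0.17 in each. *ZIC1*, the other tested gene of the list, differed by -0.12 and -0.78 and did not pass.

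limma was fitted over the 3905 genes whose rlog averaged 2 or more across libraries, a gene passed at an adjusted p under 0.1, and 25 of the 74 members entered. The lowest member inside this limit was *cldnd* with a mean rlog of 2.01, and the highest outside was *CTNNBIP1* with 1.90. Of all members, 35 had fewer than 10 counts in all 6 libraries together, and 18 of the 20 claudins and 6 of the 12 protocadherins were not tested. All 74 members together made up 826 and 766 counts per 100000 in Mosaic libraries, 623 and 527 in Ubiquitous libraries, and 692 and 848 in Uninjected libraries.

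Of the 25 tested members, *oclna* alone passed in Mosaic against Uninjected cells, where it fell, and 1.38% of all genes tested passed. No member passed in Ubiquitous against Uninjected cells, where 0.487% of all genes passed. In that comparison 4 members had an unadjusted p under 0.05 in limma, where 6.76% of all genes did, and all 4 were lower in Ubiquitous cells. No member passed there in limma-voom on the inferred counts either. In Mosaic against Ubiquitous cells *krt8* alone passed and rose, where 1.33% of all genes passed. At an unadjusted p under 0.05 there were 5 members in Mosaic against Uninjected cells (11.3% of all genes) and 9 in Mosaic against Ubiquitous cells (13% of all genes). The median difference of the members was 0.11 in Mosaic against Uninjected cells (0.02 over all genes tested), -0.14 in Ubiquitous against Uninjected cells (-0.03 over all genes) and 0.24 in Mosaic against Ubiquitous cells (0.05 over all genes). The comparisons share libraries, so these values are not independent of each other.

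**Figure D1:**
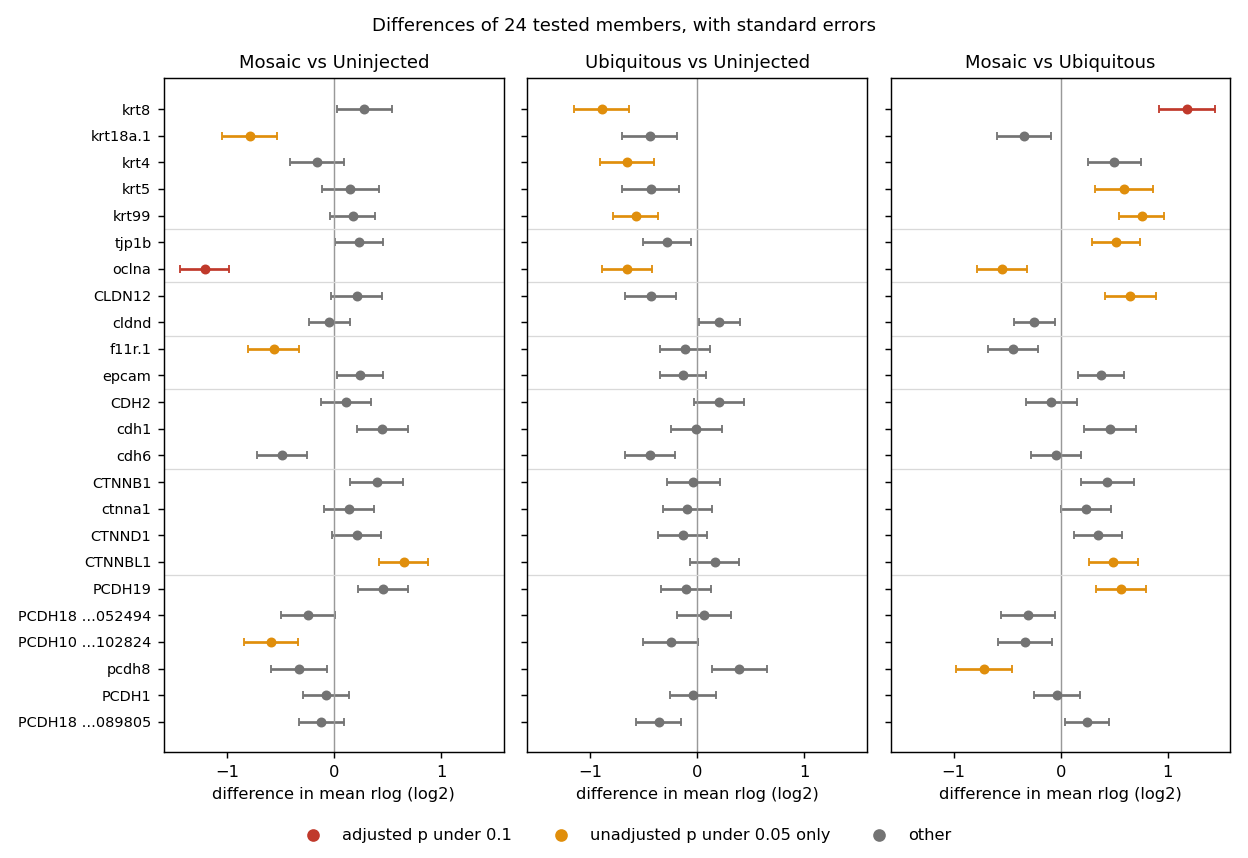
Differences in mean rlog (log2) of 24 of the 25 tested members in the 3 comparisons, grouped by family, with bars of 1 standard error. Red marks an adjusted p under 0.1 (*oclna* at -1.21 and *krt8* at 1.18), orange an unadjusted p under 0.05 only, and grey all other members. Of the members with an unadjusted p under 0.05, all 4 in Ubiquitous against Uninjected cells lie left of 0.

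The member that passed between Mosaic and Ubiquitous cells, *krt8*, encodes a type II keratin. By mean rlog it was the highest of the keratins and ranked 160th of 14132 genes. It measured 158 and 114 counts per 100000 in Mosaic libraries, 58.2 and 37.6 in Ubiquitous libraries, and 77.1 and 152 in Uninjected libraries. Both Ubiquitous libraries lay below all 4 others, and the Mosaic range fell across the upper part of the Uninjected range. On the rlog scale it averaged 7.65 ± 0.27 in Mosaic and 6.47 ± 0.21 in Ubiquitous cells, against 7.36 ± 0.46 in Uninjected cells (SD, n = 2 each). The rise in Mosaic over Ubiquitous cells was 1.18 ± 0.26 (log2 difference ± SE, limma adjusted p = 0.0416). Over the summed counts, the ratio of Mosaic to Ubiquitous cells was 2.40 (95% counting interval 2.05 to 2.81, exact binomial). That interval does not include the spread between libraries, and 201 of the 214 Ubiquitous counts came from library 1. The call was lost without either Mosaic library (adjusted p = 0.423 without library 1 and 0.205 without library 2), without Ubiquitous library 2 (adjusted p = 0.234), and with no filter on low values (adjusted p = 0.47). The difference kept its direction in each of these fits.

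Against Uninjected cells, *krt8* differed by 0.29 ± 0.26 in Mosaic cells (limma adjusted p = 0.732) and by -0.90 ± 0.26 in Ubiquitous cells (adjusted p = 0.301). The Ubiquitous difference was -1.22 without Uninjected library 1, where it passed (adjusted p = 0.069), and -0.57 without Uninjected library 2 (adjusted p = 0.623). Uninjected library 1 lay nearer to the Ubiquitous libraries, and Uninjected library 2 lay within the Mosaic range.

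*krt18a.1* encodes a type I keratin, the class with which the type II keratin of *krt8* forms filaments, and did not follow it. It measured 33.1 and 40.0 counts per 100000 in Mosaic libraries, 54.4 and 46.3 in Ubiquitous libraries, and 51.4 and 109 in Uninjected libraries. Both Mosaic libraries lay below all 4 others. The difference between Mosaic and Uninjected cells was -0.79 ± 0.25 and did not pass (limma adjusted p = 0.224), though it passed in limma-voom on the inferred counts (-1.14, adjusted p = 0.0929). It rested on Uninjected library 2, since it was -0.42 without that library (adjusted p = 0.54) and -1.15 without Uninjected library 1 (adjusted p = 0.0613). *krt18a.2* and *krt18b* were listed at 0 in all libraries.

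The ratio of *krt8* to *krt18a.1* counts was therefore set out library by library, since a ratio within 1 library does not depend on its depth or scaling. It was 4.78 (95% exact binomial interval 3.70 to 6.25) and 2.84 (2.25 to 3.63) in Mosaic libraries. It was 1.07 (0.872 to 1.31) and 0.812 (0.36 to 1.80) in Ubiquitous libraries, and 1.5 (0.924 to 2.47) and 1.40 (1.25 to 1.56) in Uninjected libraries. The intervals of both Mosaic libraries lay above those of both Ubiquitous libraries and of Uninjected library 2. That of Mosaic library 2 overlapped that of the shallow Uninjected library 1. The intervals of the 2 Mosaic libraries did not overlap each other, and none of these intervals includes the spread between libraries. *krt8* and *krt18a.1* were looked at together after their values were seen, and 2 libraries against 2 allow no exact permutation p under 0.05. The ratio of *krt8* to *krt4*, both type II genes, was 4.59 (3.56 to 5.97) and 5.35 (3.96 to 7.37) in Mosaic libraries. It was 3.0 (2.27 to 4.02) and 3.25 (1.0 to 13.7) in Ubiquitous libraries, and 3.21 (1.73 to 6.34) and 3.52 (3.01 to 4.12) in Uninjected libraries. It was also highest in both Mosaic libraries, but the intervals of all 6 libraries overlapped. The ratios of *krt4* and *krt5* to *krt18a.1* were also highest in both Mosaic libraries. For *krt4* this was 1.04 and 0.531 in Mosaic libraries, 0.356 and 0.25 in Ubiquitous libraries, and 0.467 and 0.397 in Uninjected libraries. For *krt5* it was 0.486 and 0.167, 0.0904 and 0.0625, and 0.1 and 0.122 in the same order. Such a rise was thus not particular to *krt8*. In the RefSeq gene order of assembly GRCz12tu, *krt5*, *krt8*, *krt18a.1* and *krt18a.2* are consecutive protein-coding genes on chromosome 23. There *krt8* and *krt18a.1* are direct neighbours.

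**Figure D2:**
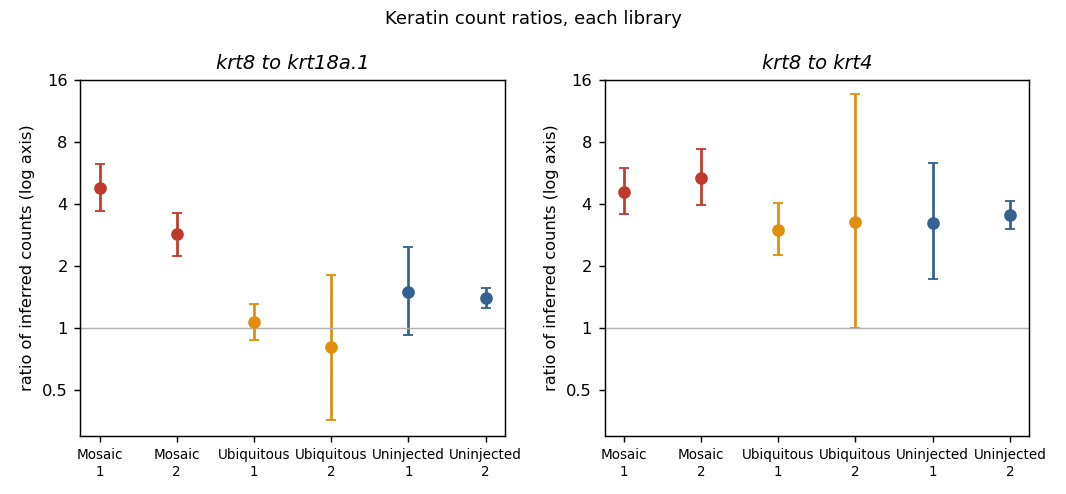
Ratio of inferred counts of *krt8* to *krt18a.1* (left) and of *krt8* to *krt4* (right) in each library, on a log axis, with exact 95% counting intervals. The *krt8* to *krt18a.1* ratio was 4.78 and 2.84 in Mosaic libraries and between 0.812 and 1.5 in the other 4.

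The type II keratin genes *krt4* and *krt5* measured less in Ubiquitous libraries than in the rest. *krt4*, an epidermal type II keratin, measured 34.5 and 21.2 counts per 100000 in Mosaic libraries, 19.4 and 11.6 in Ubiquitous libraries, and 24.0 and 43.1 in Uninjected libraries. Its difference was -0.66 ± 0.25 between Ubiquitous and Uninjected cells (limma adjusted p = 0.624), and -0.40 without Uninjected library 2. *krt5*, a further type II keratin, measured 16.1 and 6.66 in Mosaic libraries, 4.92 and 2.90 in Ubiquitous libraries, and 5.14 and 13.3 in Uninjected libraries, with a difference of 0.59 ± 0.27 between Mosaic and Ubiquitous cells (adjusted p = 0.364) that was 0.23 without Mosaic library 1 and 0.95 without Mosaic library 2. Both genes were lowest in the Ubiquitous libraries without overlap, and both spread widely within the Mosaic and within the Uninjected pair. For *krt5* the gap was only from 4.92 to 5.14, with 1 count in Ubiquitous library 2 and 3 counts in Uninjected library 1.

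*krt99* showed the largest ratio of Mosaic to Ubiquitous summed counts among the 5 tested keratins. It had 14 and 15 counts in Mosaic libraries, 3 and 0 in Ubiquitous libraries, and 2 and 32 in Uninjected libraries. The ratio per 100000 was 8.03 (95% counting interval 2.49 to 41.2, without the spread between libraries), from 3 counts in Ubiquitous cells. The rlog difference was 0.76 ± 0.21 and did not pass (limma adjusted p = 0.125), and it passed in limma-voom (adjusted p = 0.0919), with only the 4 libraries compared (adjusted p = 0.089) and without either Uninjected library (adjusted p = 0.093 without library 1 and 0.0889 without library 2).

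The 8 keratins under the filter added 11 and 3.75 counts per 100000 in Mosaic libraries, 3.47 and 0 in Ubiquitous libraries, and 1.71 and 13.1 in Uninjected libraries. *krt97* had 11 and 4 counts in Mosaic libraries, 3 and 0 in Ubiquitous libraries, and 0 and 18 in Uninjected libraries. *cyt1*, a type I keratin of the enveloping layer, had 16 of its 21 counts in Uninjected library 2, and *krt17* 12 of its 14. The plakins envoplakin (*evpla*) and periplakin (*PPL*), which tie keratins to the periphery of surface epithelial cells, together measured 8.29 and 3.33 in Mosaic libraries, 2.31 and 0 in Ubiquitous libraries, and 1.71 and 7.97 in Uninjected libraries. The order of the libraries was nearly the one seen for *krt4* and *krt5*, with Mosaic library 1 and Uninjected library 2 on top.

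**Figure D3:**
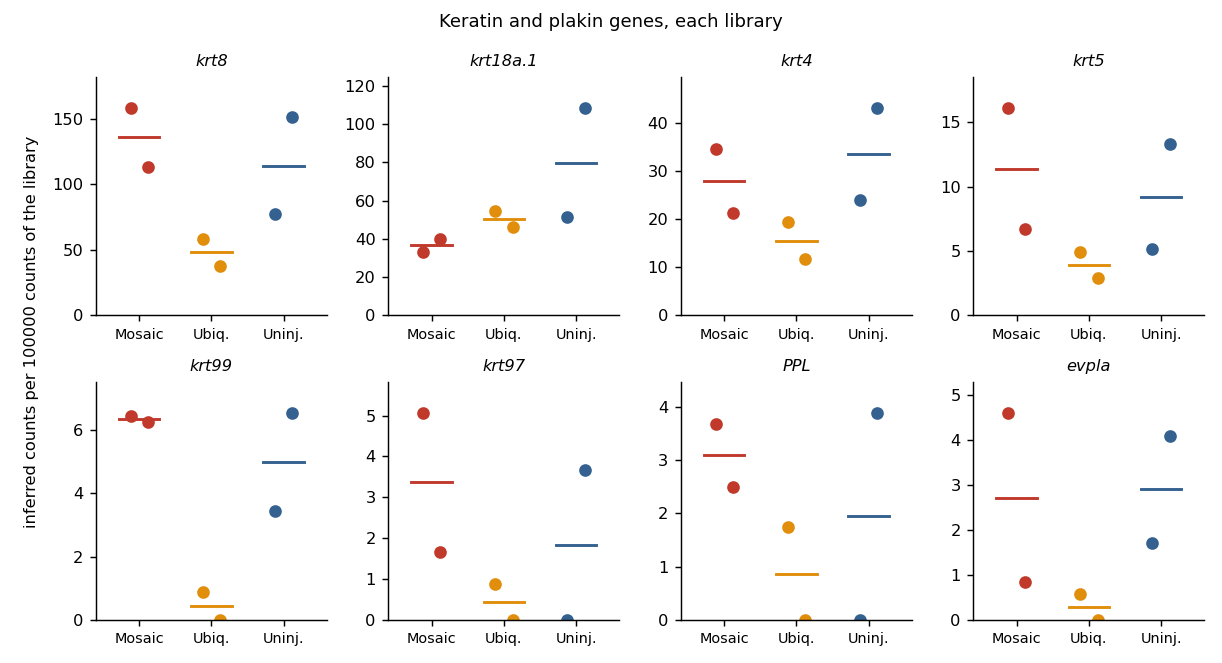
Inferred counts per 100000 of 6 keratins and 2 plakins in each library, as points, with group means as lines. The Ubiquitous libraries were lowest in *krt8*, *krt4*, *krt5* and *krt99*, whereas the Mosaic libraries were lowest in *krt18a.1*.

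Markers of the enveloping layer that are not in the family moved with these sums. Of 21 such markers listed, 18 matched a gene other than a member, 14 of them had counts, and these 14 summed to 32.7 and 30.8 counts per 100000 in Mosaic libraries, 21.4 and 14.5 in Ubiquitous libraries, and 24.0 and 56.4 in Uninjected libraries. *ANXA1*, an annexin of that layer, had 9 and 10 counts in Mosaic libraries, 0 and 0 in Ubiquitous libraries, and 0 and 13 in Uninjected libraries. *cyt1l*, a cytokeratin whose symbol falls outside the rule, had 13 and 3 counts in Mosaic libraries, 1 and 0 in Ubiquitous libraries, and 1 and 22 in Uninjected libraries. *icn2*, *ELF3* and *AGR2* were at 0 in every library. The marker sums differed little between Ubiquitous library 1 (21.4) and Uninjected library 1 (24.0, from 14 counts). Ubiquitous library 2 had 5 marker counts. The 12 keratins other than *krt18a.1* summed to 227 and 151 in Mosaic libraries, 86.8 and 52.1 in Ubiquitous libraries, and 111 and 228 in Uninjected libraries. Most of the counts in that sum were of *krt8*. With *krt18a.1*, all 13 keratins summed to 260 and 192 in Mosaic libraries and 141 and 98.4 in Ubiquitous libraries. In Uninjected libraries all 13 summed to 163 and 336. In bulk libraries fewer enveloping layer cells and less keratin RNA per cell cannot be told apart, and the part of cell makeup in the keratin differences was not tested.

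**Figure D4:**
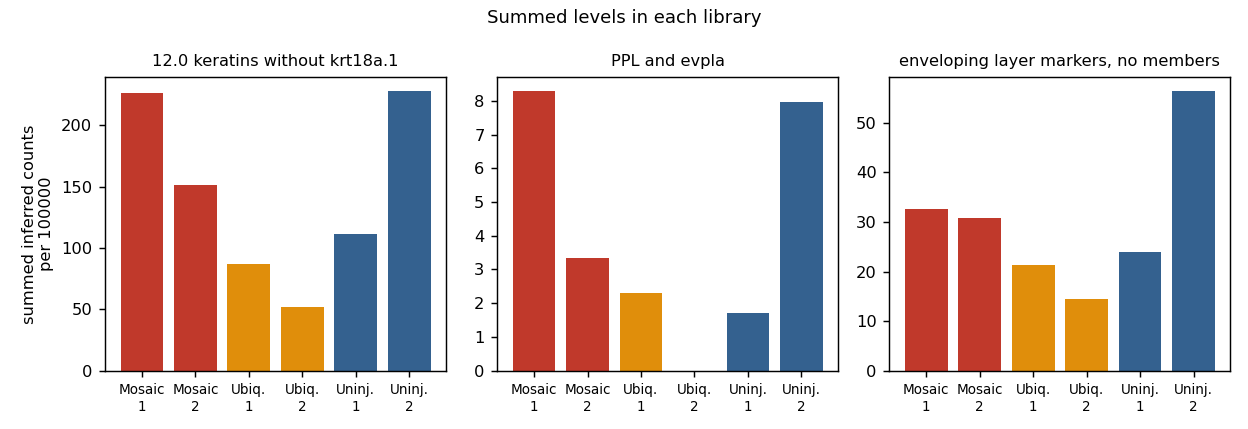
Summed inferred counts per 100000 in each library of the 12 keratins other than *krt18a.1* (left), of *PPL* and *evpla* (middle) and of the enveloping layer markers outside the family (right). Both Ubiquitous libraries are the lowest for the keratins and the markers. The markers stand at 24.0 in Uninjected library 1 and 56.4 in Uninjected library 2. Their value in Ubiquitous library 1 (21.4) is close to that in Uninjected library 1, which rests on 14 counts.

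The genes whose rlog pattern over the 6 libraries was most like that of *krt8* were *bxdc2* (Pearson's r = 0.988), *MDK* (0.986), *RPL27* (0.985), *nop16* (0.977) and *SMARCAD1* (0.968) among the 3905 tested, as a description over libraries that share their depth and group structure. Among the members, *krt99* (0.901), *krt4* (0.893), *CTNND1* (0.889), *krt5* (0.882) and *epcam* (0.859) were nearest, while *krt18a.1* was at 0.0475.

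Tight junction genes held the other member that passed. *oclna* encodes occludin, a transmembrane protein of tight junctions. It had 6 and 2 counts in Mosaic libraries, 22 and 1 in Ubiquitous libraries, and 9 and 53 in Uninjected libraries, which is 2.76 and 0.833 per 100000 in Mosaic libraries, 6.37 and 2.90 in Ubiquitous libraries, and 15.4 and 10.8 in Uninjected libraries. Both Mosaic and both Ubiquitous libraries lay below both Uninjected libraries. Mean rlog was 2.5 ± 0.29 in Mosaic and 3.06 ± 0.20 in Ubiquitous cells, against 3.71 ± 0.17 in Uninjected cells (SD, n = 2 each). *oclna* fell by 1.21 ± 0.23 in Mosaic against Uninjected cells (limma adjusted p = 0.0109). The summed counts gave a ratio of 0.154 (95% counting interval 0.0639 to 0.324). That interval leaves out the spread between libraries, and 53 of the 62 Uninjected counts came from library 2. The fall was -2.67 in limma-voom on the inferred counts, where the values of weakly counted genes are not shrunk. The call was lost without Mosaic library 2 (-1.01, adjusted p = 0.333) and with no filter on low values (adjusted p = 0.227).

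Between Ubiquitous and Uninjected cells the *oclna* difference was -0.66 ± 0.23 (limma adjusted p = 0.51), and between Mosaic and Ubiquitous cells it was -0.55 ± 0.23 (adjusted p = 0.326), or -0.35 without Mosaic library 2. Thus the fall in Mosaic cells was not shown to differ from the value in Ubiquitous cells. Its paralogue *oclnb* had 9 counts in all. *oclna* was highest in Uninjected library 1, whereas each of the 5 tested keratins was highest in Mosaic library 1 or Uninjected library 2 per 100000, and the correlation of *oclna* with *krt8* over the 6 libraries was -0.133.

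Unlike *oclna*, no scaffold or claudin gene of the same junction passed in Mosaic against Uninjected cells. *tjp1b*, a ZO-1 scaffold gene, measured 9.21 and 11.7 counts per 100000 in Mosaic libraries, 5.79 and 2.90 in Ubiquitous libraries, and 6.86 and 8.99 in Uninjected libraries. Its difference was 0.51 ± 0.23 between Mosaic and Ubiquitous cells (limma adjusted p = 0.341). *CLDN12*, the best-measured claudin, had 20 and 32 counts in Mosaic libraries, 21 and 0 in Ubiquitous libraries, and 6 and 39 in Uninjected libraries, with a difference of 0.65 ± 0.24 between Mosaic and Ubiquitous cells (adjusted p = 0.238). Both genes were lowest in Ubiquitous cells, on 1 count or none in the shallow Ubiquitous library.

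Claudins as a family summed to 20.3 and 19.6 counts per 100000 in Mosaic libraries, 13.9 and 11.6 in Ubiquitous libraries, and 20.6 and 21.1 in Uninjected libraries. Only *CLDN12* and *cldnd* of the 20 were tested, and neither passed in any comparison. *cldne*, a claudin of the enveloping layer, had 4 and 3 counts in Mosaic libraries, 6 and 0 in Ubiquitous libraries, and 1 and 16 in Uninjected libraries. The 2 genes named *CLDN5* had 3 counts between them, and *cldnf* was listed at 0.

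*f11r.1*, a JAM-A type adhesion receptor that lies at tight junctions, was low in Mosaic cells. It measured 13.3 and 10.8 counts per 100000 in Mosaic libraries, 16.2 and 26.1 in Ubiquitous libraries, and 18.9 and 26.6 in Uninjected libraries. Both Mosaic libraries lay below all 4 others. The difference from Uninjected cells was -0.56 ± 0.23 and did not pass (limma adjusted p = 0.356). It lay between -0.69 and -0.44 when any of the Mosaic or Uninjected libraries was left out. *epcam*, an epithelial adhesion molecule, was highest in Mosaic library 1, with 7.83 and 5.41 in Mosaic libraries, 3.47 and 2.90 in Ubiquitous libraries, and 3.43 and 5.52 in Uninjected libraries. Its rlog difference of 0.24 ± 0.22 between Mosaic and Uninjected cells had an adjusted p of 0.725 in limma.

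No classical cadherin passed in any comparison. *cdh1* encodes E-cadherin, the main cadherin of the early zebrafish embryo. It had 40 and 55 counts in Mosaic libraries, 46 and 4 in Ubiquitous libraries, and 10 and 51 in Uninjected libraries, or 18.4 and 22.9 per 100000 in Mosaic libraries, 13.3 and 11.6 in Ubiquitous libraries, and 17.1 and 10.4 in Uninjected libraries. The Mosaic libraries were the highest 2 of the 6, the lower of them just above Uninjected library 1. The difference from Uninjected cells was 0.45 ± 0.24 in Mosaic cells (limma adjusted p = 0.503) and -0.01 ± 0.24 in Ubiquitous cells (adjusted p = 0.997). Without Uninjected library 2 the Mosaic difference was 0.17, and without Uninjected library 1 it was 0.73, so its size rested on which Uninjected library was used. The summed counts gave a ratio of 1.86 (95% counting interval 1.34 to 2.62), which does not include the spread between libraries.

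*CDH2*, the gene of N-cadherin, measured 28.5 and 23.7 counts per 100000 in Mosaic libraries, 27.2 and 31.9 in Ubiquitous libraries, and 29.1 and 20.2 in Uninjected libraries. Its groups overlapped, and its difference of 0.11 ± 0.24 between Mosaic and Uninjected cells (limma adjusted p = 0.888) turned to -0.14 without Uninjected library 2. *CDH2* was above *cdh1* in each of the 6 libraries, at a *cdh1* to *CDH2* count ratio between 0.364 and 0.965. *cdh6* measured 9.21 and 8.74 in Mosaic libraries, 9.84 and 8.69 in Ubiquitous libraries, and 20.6 and 13.5 in Uninjected libraries, so that both β-catCA groups lay below both Uninjected libraries. Its differences were -0.49 ± 0.23 in Mosaic cells (adjusted p = 0.443) and -0.44 ± 0.23 in Ubiquitous cells (adjusted p = 0.771), and the other 7 cadherins had too few counts to be tested.

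The members with the highest mean rlog were a pair of catenin genes. *CTNNB1* (β-catenin) ranked 75th and *ctnna1* (α-catenin) 86th of the 14132 genes by mean rlog. *CTNNB1* measured 197 and 201 counts per 100000 in Mosaic libraries, 152 and 130 in Ubiquitous libraries, and 173 and 125 in Uninjected libraries, a difference of 0.40 ± 0.25 between Mosaic and Uninjected cells (limma adjusted p = 0.578) that was 0.67 without Uninjected library 1 and 0.13 without Uninjected library 2. Its Mosaic libraries were the highest 2 of the 6, but the Uninjected pair differed by more than the distance from Uninjected library 1 to the Mosaic libraries. Reads of the mouse β-catCA transcript and of the zebrafish gene were not told apart here, and a share of β-catCA reads in this row was not tested. *ctnnb2*, the second zebrafish β-catenin gene, was listed at 0 in all libraries, and whether its RNA was absent was not tested.

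*ctnna1*, which links the cadherin complex to actin, measured 140 and 171 counts per 100000 in Mosaic libraries, 134 and 124 in Ubiquitous libraries, and 134 and 149 in Uninjected libraries. Its difference was 0.14 ± 0.23 between Mosaic and Uninjected cells (limma adjusted p = 0.857; 0.01 without Mosaic library 2 and 0.27 without Mosaic library 1), and -0.09 ± 0.23 between Ubiquitous and Uninjected cells (adjusted p = 0.97). With 2030 counts in all it was among the best-measured members, and its groups lay within 0.24 of each other on the rlog scale. *CTNND1*, p120-catenin, measured 19.8 and 15.4 in Mosaic libraries, 14.2 and 8.69 in Ubiquitous libraries, and 12 and 16.5 in Uninjected libraries. *CTNNBL1* measured 14.3 and 13.3 in Mosaic libraries, 8.68 and 5.79 in Ubiquitous libraries, and 3.43 and 8.17 in Uninjected libraries, with a difference of 0.65 ± 0.23 between Mosaic and Uninjected cells that did not pass (adjusted p = 0.275).

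**Figure D5:**
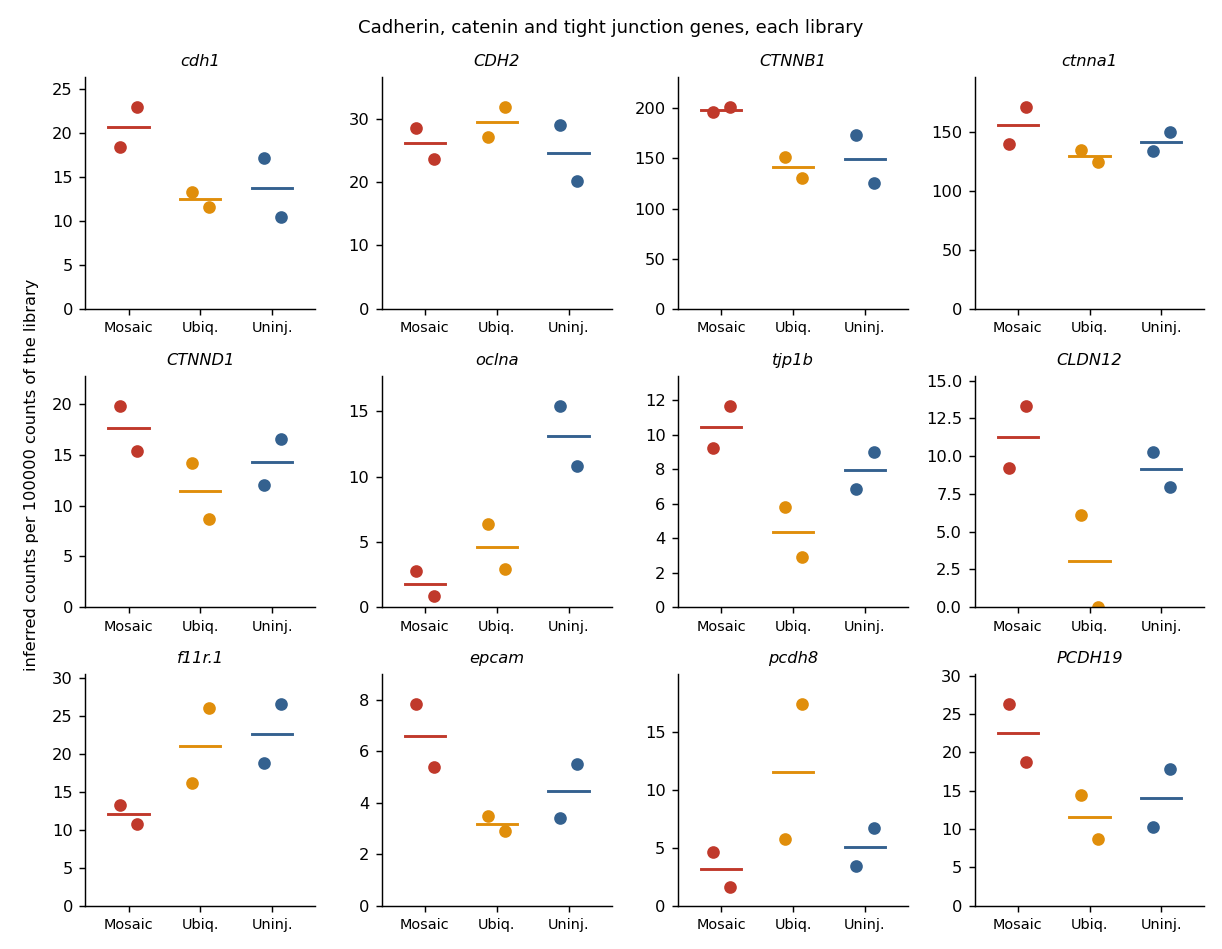
Inferred counts per 100000 of 12 cadherin, catenin, tight junction and protocadherin genes in each library, as points, with group means as lines. *oclna* is highest in both Uninjected libraries (15.4 and 10.8), *f11r.1* lowest in both Mosaic libraries (13.3 and 10.8), and the *CDH2* groups overlap.

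No protocadherin passed in any comparison, and the differences of those tested had both signs. *pcdh8*, the paraxial protocadherin of the presomitic mesoderm, had 10 and 4 counts in Mosaic libraries, 20 and 6 in Ubiquitous libraries, and 2 and 33 in Uninjected libraries. Per 100000 these are 4.60 and 1.67 in Mosaic libraries, 5.79 and 17.4 in Ubiquitous libraries, and 3.43 and 6.74 in Uninjected libraries. Its difference was -0.72 ± 0.26 between Mosaic and Ubiquitous cells (limma adjusted p = 0.237), the most negative of any member in that comparison. Without Ubiquitous library 2 it was -0.39, and without Mosaic library 2 it was -0.47, and without Ubiquitous library 2 *oclna* at -0.69 was the more negative. Among mesodermal markers outside the family, *tbxta* fell in Mosaic cells relative to both other groups and *tbx16* fell relative to Ubiquitous cells. Against Ubiquitous cells the falls were 1.5 ± 0.29 (limma adjusted p = 0.025) and 1.13 ± 0.23 (adjusted p = 0.034). Of 8 mesodermal and posterior markers tested, only these 2 passed there, and 1 lay above 0. *msgn1* differed by -0.61 (adjusted p = 0.358), *MYF5* by -0.17 (0.788), *tbx6* by -0.16 (0.802) and *cdx4* by 0.05 (0.944). Against Uninjected cells 3 of the 8 lay above 0 in Mosaic cells. The part of cell makeup in the *pcdh8* value was not tested.

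*PCDH19* measured 26.2 and 18.7 counts per 100000 in Mosaic libraries, 14.5 and 8.69 in Ubiquitous libraries, and 10.3 and 17.8 in Uninjected libraries, with a difference of 0.56 ± 0.23 between Mosaic and Ubiquitous cells (limma adjusted p = 0.315). *PCDH10* (ENSDARG00000102824) measured 6.91 and 5.83 in Mosaic libraries, 11 and 8.69 in Ubiquitous libraries, and 20.6 and 9.40 in Uninjected libraries. It differed by -0.59 ± 0.25 between Mosaic and Uninjected cells (adjusted p = 0.385), which was -0.23 without Uninjected library 1 and -0.95 without Uninjected library 2. *PCDH18* (ENSDARG00000052494) measured 11.5 and 11.7 in Mosaic libraries, 16.5 and 17.4 in Ubiquitous libraries, and 8.57 and 23.9 in Uninjected libraries. The Uninjected pair thus spanned both other groups for this gene.

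Counted over the 25 tested members on the rlog scale, 12 lay lower in both Ubiquitous libraries than in both Uninjected libraries and none lay higher, whereas 19.6% of all genes tested lay lower and 13.7% higher. The 12 included all 5 tested keratins, *oclna*, *tjp1b*, *CLDN12* and *epcam*. On counts per 100000, 9 lay lower and none higher, where 19.1% and 12.7% of all genes did, and *krt18a.1*, *epcam* and *ctnna1* overlapped. In Mosaic against Uninjected cells 9 members lay higher and 5 lower without overlap, where 23.1% and 19.9% of all genes did. In Mosaic against Ubiquitous cells 14 lay higher and 8 lower, where 28.1% and 18.5% did. The members lie close in function and share cells, so they do not count as independent observations.

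Other genes of the same structures were taken from a list of 69 integrin, nectin, polarity, desmosome and actin-linker genes. Of these 39 matched a row, 23 had counts, 6 were tested and none passed in any comparison. Their summed level was 77.8 and 67.0 counts per 100000 in Mosaic libraries, 78.4 and 89.8 in Ubiquitous libraries, and 84.0 and 95.8 in Uninjected libraries. In Mosaic against Uninjected cells 3 of the 6 lay above 0. *TLN1*, the integrin-binding protein talin, differed by 0.42 ± 0.21 (limma adjusted p = 0.472), *ITGA5*, the fibronectin receptor subunit, by -0.36 ± 0.27 (adjusted p = 0.683), and *LIMA1*, an actin-binding protein of the cadherin complex, by -0.38 ± 0.22 (adjusted p = 0.556). In Ubiquitous against Uninjected and in Mosaic against Ubiquitous cells, 3 of the 6 also lay above 0. The largest differences there were of *AMOTL2*, at 0.59 ± 0.25 (limma adjusted p = 0.648) and -0.64 ± 0.25 (adjusted p = 0.266) in that order.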

How the data were processed

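RNA from sorted cells of 3 groups with 2 libraries each was measured by CEL-Seq2. The authors aligned reads to GRCz10 with Bowtie2 (version 2.3.1), and gene counts, made with version 0.6.1 of HTSeq, kept each unique molecular identifier once. They deposited log2 values on the rlog scale, for which the parameters are not given in the sources used here. Groups were taken from the labels. Symbols came from Ensembl identifiers, matched for 26433 of 32266 rows. Counts were recovered by inverting the rlog model, and 99.96% of the 14132 genes, with all 74 members, came back within 0.001. Genes whose rlog averaged 2 or more were fitted with limma (version 3.58.1 in R 4.3.3, variance trend, all 6 libraries, group only), two-sided, with Benjamini-Hochberg adjustment over 3905 genes at 0.1. The authors' stated threshold was the same, but their count test does not suit rlog values. Standard deviations, exact binomial intervals (95%) and per 100000 levels were computed from the libraries. The fit and the inversion were tested on simulated data. Alternatives were other filters, scalings, variance priors, sample sets, a lot-number block, limma-voom on inferred counts and each library left out.

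Members were named where they passed, had one of the 3 largest differences in either direction, were among the 3 highest of a family, or were core junction and keratin genes. *krt99*, *krt97*, *krt17*, *cyt1l* and *ANXA1* were also chosen after their values were seen. Values of 1 tested member are not reported here, though it stays in the fits, sums and counts. The members and lists were chosen with earlier results of these data known. Shrinkage pulls values of the 2 shallow libraries towards the mean of each gene.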

Additional observations from a re-analysis of the deposited data

Results flagged for a closer look

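*krt8* differed from Uninjected cells by unequal amounts in Mosaic and Ubiquitous cells. Relative to the same Uninjected libraries, *krt8* differed by 0.29 ± 0.26 in Mosaic cells and by -0.90 ± 0.26 in Ubiquitous cells, and the difference between these effects, which is the Mosaic to Ubiquitous difference, was 1.18 ± 0.26 on the log2 scale (limma adjusted p = 0.0416). Neither effect passed by itself, and the call for their difference was lost without either Mosaic library or without Ubiquitous library 2 (adjusted p between 0.205 and 0.423).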

How the results depend on the processing

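With no filter on low values, 6, 7 and 0 genes passed in Mosaic against Uninjected, Ubiquitous against Uninjected and Mosaic against Ubiquitous cells, in place of 54, 19 and 52, with 0 members, and the members' medians were -0.00800, -0.039 and 0.00424. With a mean rlog of at least 4, 18, 5 and 24 genes passed, with 0 members in Mosaic against Uninjected cells, where *oclna* was not tested. In the 4 deepest libraries, which leave 1 Ubiquitous and 1 Uninjected library with the spread taken from the Mosaic pair, 142, 54 and 159 genes passed, with 2, 1 and 2 members, and the first median was 0.0196. In limma-voom on inferred counts 2 members passed in each comparison with Mosaic cells, with medians of 0.0194 against Uninjected and 0.43 against Ubiquitous cells. With only the 4 libraries compared, 2 members passed in Mosaic against Ubiquitous cells. At an adjusted p under 0.05, 33 genes passed there.

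Leaving out 1 library gave 25 to 64 genes, 0 to 2 members and medians of 0.0196 to 0.13 in Mosaic against Uninjected cells (fewest genes without Mosaic library 2). It gave 14 to 25 genes, 0 to 1 member and medians of -0.25 to -0.14 in Ubiquitous against Uninjected cells. It gave 2 to 67 genes, 0 to 2 members and medians of 0.21 to 0.34 in Mosaic against Ubiquitous cells, with 2 genes without either Mosaic library and 10 without Ubiquitous library 2. A library left alone in its group was assumed to vary like the others. Of 22 differences of single members, 21 kept their direction in every setting, though several settings leave a difference as it was by construction. The exception was *CDH2* in Mosaic against Uninjected cells, between -0.14 and 0.36.

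Lot numbers were shared by the groups, and differences between lot 1 and lot 2 correlated between groups at -0.12, -0.0386 and -0.059 over genes. Depth ran in opposite directions over the lots in Ubiquitous and Uninjected cells. These values therefore cannot decide whether the lot numbers pair the libraries. With the lot number as a replicate block 57, 23 and 50 genes passed, *oclna* (adjusted p = 0.00667) and *krt8* (adjusted p = 0.0447) still passed in limma, and no call of a named member changed.

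Depth limits the 49 members under the filter, and rlog differences understate the change of genes with few counts in the shallow libraries.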
